A study of Drosophila melanogaster with 9 samples.

Results

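The aminoacyl-tRNA synthetases and the translation initiation factors of the fruit fly Drosophila melanogaster were followed across larvae that were wild type, heterozygous or homozygous for a mutation in Atg6, the fly Beclin 1, which starts autophagosome formation. Members were all loci of the deposited expression table whose gene name began with Aats-, the older fly prefix for a synthetase, or with eIF, taking 1 line per locus. This gave 52 of 15809 loci, 22 synthetase genes and 30 initiation factor loci, under 51 names, because eIF4G2 appeared on 2 loci. By their current RefSeq symbols, 7 of the synthetases carry the mitochondrial suffix -m and 15 do not. The 15 are called cytosolic here, although a symbol without the suffix does not show that a gene serves the cytosol only. Only Aats-ala-m and Aats-tyr-m of those 7 carried the mitochondrial suffix in the table. The other 5, Aats-leu, Aats-met, Aats-phe, Aats-pro and Aats-ser, now have the symbols LeuRS-m, MetRS-m, PheRS-m, ProRS-m and SerRS-m.

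Each synthetase joins its amino acid to the matching tRNAs, and a nuclear gene set separate from the cytosolic one serves most tRNAs of the mitochondrial ribosome. Initiation begins when eIF2 brings the initiator tRNA to the small ribosomal subunit, which is held by the large eIF3 complex, while eIF4E binds the mRNA cap and eIF4G and the helicase eIF4A prepare the leader. Flies carry extra copies of eIF4E and eIF4G, several of which are known for their use in the male germ line.

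The study sequenced whole wandering larvae of the final instar raised at 25 °C, in 9 libraries, 3 per genotype, all in the w118 background. The wild type carried both intact copies of Atg6, the heterozygote (Atg6-/+, titled Atg6D/+) 1 and the homozygote (Atg6-/-, titled Atg6D/Atg6D) none, and the mutation was present in every tissue of the animal. Expression was given as FPKM, the fragment count divided by transcript length and library size. Because whole animals were used, fewer cells of a type and less RNA per cell cannot be told apart. Effects of losing Atg6 and of variants linked to the mutant chromosome cannot be told apart either.

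Atg6 itself stood at 16.1, 14.3 and 17.0 FPKM in wild type libraries, 7.58, 7.98 and 8.89 FPKM in heterozygous and 0.0270, 0 and 0.0563 FPKM in homozygous ones. The 3 genotypes did not overlap, which matches their labels. FPKM summed to between 754677 and 1099060 per library, and the 10 highest loci held between 19.0 and 24.2% of it where at least 1 intact Atg6 copy was present and between 10.8 and 16.7% in the homozygotes. Those highest loci include salivary glue and fat body genes: the 6 glue genes (Sgs) summed to 51392 to 74341 FPKM per wild type library, 51167 to 58490 per heterozygous and 4004 to 27097 per homozygous library, with 1 of 6 called lower and none at 0. The 6 fat body markers summed to 28755 to 49437, 37268 to 50977 and 12911 to 33473 FPKM, with 1 of 5 tested called lower. Over all tested loci 9.67% were called lower in the homozygote. Lsp1gamma stood at 0 in every library. Lsp1beta stood at 0 in heterozygote 3 and homozygote 1 and between 3299 and 14821 FPKM in all others. The fat body sums of heterozygote 3 and homozygote 1 therefore lack it. Homozygote 1 had the lowest glue sum, and the part of these sums in the results below was not tested. Of 10 blood cell markers 5 were called higher in the homozygote, where 12.3% of all tested loci were, and none was called lower. The 10 markers summed to 472 to 914 FPKM in the wild types and 1069 to 1376 in the homozygotes, with none at 0. Not all of them rose: eater and crq had log2 fold changes of −0.94 and −0.11 (limma adjusted p = 0.0516 and 0.67). The homozygotes of eater lay below all wild types. None of 9 muscle markers was called. Their sums ran from 6999 to 18662 FPKM in the wild types and from 9711 to 28449 in the homozygotes. Of 8 imaginal disc markers 2, dac and eya, were called lower (limma adjusted p = 0.0412 and 0.0489), where 9.67% of all tested loci were. Of the 8, 7 had a log2 fold change below 0, with sums of 46.9 to 56.4 FPKM in the wild types and 34.4 to 48.9 in the homozygotes. None of 5 tested neuron markers was called, and 4 were below 0.

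In the homozygote against the wild type, 23 of the 52 members rose and 4 fell, on limma's test with Benjamini-Hochberg adjustment over the 10887 loci with at least 1 FPKM in at least 3 libraries (adjusted p under 0.05). All 52 members passed that filter. Over all tested loci 12.3% were called higher and 9.67% lower, 22.0% in all. The genes that rose were 10 cytosolic synthetases, 12 initiation factors and 1 of the eIF4G2 loci, and the 4 that fell were copies of eIF4E. The median log2 fold change of the members was 0.26 against 0.01 over all tested loci. With quantile normalization 7 members were called higher and 3 lower, and with only the 2 genotypes fitted 13 and 1. Without wild type 1, without wild type 3 or without homozygote 3 the split was 15 higher and 0 lower in each case. Over all tested loci the 1343 higher and 1053 lower calls became 1067 and 704 with quantile normalization and 550 and 143 with only the 2 genotypes fitted. Without these 3 libraries in turn they became 780 and 274, 583 and 154, and 735 and 191, so that over all loci, too, the number of lower calls shrank by a larger share than that of higher calls.

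**Figure D1:**
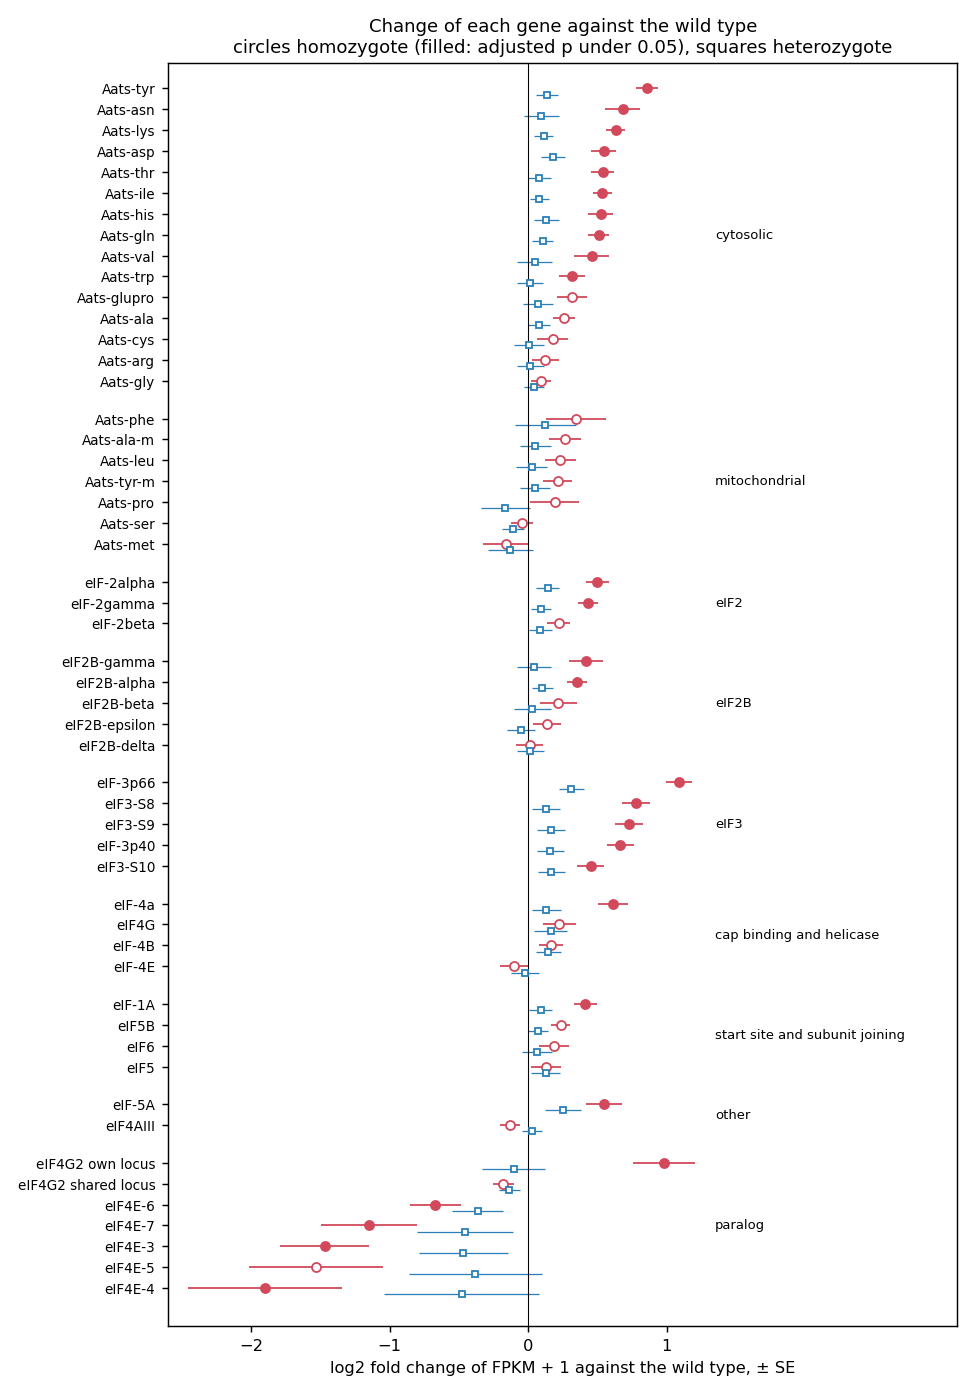
Log2 fold change of FPKM + 1 against the wild type with its standard error, for the homozygote (circles, filled where the limma adjusted p is under 0.05) and the heterozygote (squares), with the 52 members grouped by role. Cytosolic synthetases and eIF3 subunits lie right of 0 in the homozygote, and the 5 extra eIF4E genes lie left of it.

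Among the cytosolic synthetases 10 of 15 rose in the homozygote, where 12.3% of all tested loci were called higher. None fell, and the median log2 fold change was 0.51. Homozygote and wild type libraries did not overlap for 13 of the 15, all 13 higher, where 19.5% of all tested loci were separated in that direction. All 15 log2 fold changes were above 0, although that of Aats-gly turned to −0.03 with quantile normalization. The largest rise was that of Aats-tyr, which charges tyrosine tRNA and lies on chromosome 3L from 16417349 to 16419302 (dm6). Aats-tyr stood at 43.8, 47.1 and 43.7 FPKM in wild type libraries, 52.8, 45.8 and 49.6 FPKM in heterozygous and 83.0, 83.0 and 80.0 FPKM in homozygous ones. The homozygotes lay above every other library, and the means of wild type and homozygote, 44.9 ± 1.94 and 82.0 ± 1.73 FPKM (SD, n = 3), differed by a log2 fold change of 0.86 (SE 0.08, limma adjusted p = 0.000664).

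Aats-asp and Aats-thr, for aspartate and threonine, were with Aats-tyr the 3 most abundant synthetases. Aats-asp stood at 72.5, 78.8 and 69.3 FPKM in wild type libraries, 87.3, 78.4 and 84.4 FPKM in heterozygous and 113, 109 and 101 FPKM in homozygous ones. Aats-thr stood at 49.4, 54.7 and 49.8 FPKM in wild type libraries, 57.6, 52.5 and 52.8 FPKM in heterozygous and 71.7, 78.5 and 74.5 FPKM in homozygous ones. In both genes all homozygotes exceeded all other libraries, with log2 fold changes of 0.55 (SE 0.09, limma adjusted p = 0.0068) and 0.54 (SE 0.08, limma adjusted p = 0.00527). The deposited value of Aats-asp also covers CR43468, a noncoding gene merged into the same locus.

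The next 3 synthetases by adjusted p charge lysine, isoleucine and glutamine tRNAs. Aats-lys stood at 36.7, 37.3 and 35.1 FPKM in wild type libraries, 39.5, 37.9 and 40.8 FPKM in heterozygous and 55.9, 58.4 and 56.4 FPKM in homozygous ones. Aats-ile stood at 21.8, 23.3 and 22.0 FPKM in wild type libraries, 24.1, 23.2 and 23.8 FPKM in heterozygous and 31.5, 34.7 and 32.5 FPKM in homozygous ones. Aats-gln stood at 21.5, 22.2 and 20.6 FPKM in wild type libraries, 24.4, 21.2 and 24.0 FPKM in heterozygous and 31.4, 30.7 and 30.7 FPKM in homozygous ones. The 3 homozygotes lay close together in each of these genes and above the other 6 libraries. The log2 fold changes were 0.63 for Aats-lys (SE 0.07, limma adjusted p = 0.00121), 0.54 for Aats-ile (SE 0.07, limma adjusted p = 0.00251) and 0.51 for Aats-gln (SE 0.08, limma adjusted p = 0.00496).

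Aats-asn, for asparagine, stood at 33.1, 33.1 and 31.1 FPKM in wild type libraries, 36.4, 32.6 and 35.4 FPKM in heterozygous and 46.5, 64.0 and 48.9 FPKM in homozygous ones. Homozygote 2 was the highest of these libraries, and the log2 fold change was 0.68 (SE 0.12, limma adjusted p = 0.0104). Aats-his, for histidine, rose by a log2 fold change of 0.52 (limma adjusted p = 0.00885), in a locus that the table merges with Bx. Aats-val and Aats-trp, for valine and tryptophan, rose by 0.46 and 0.32 on the log2 scale (limma adjusted p = 0.0402 and 0.0449). The calls of Aats-val and Aats-trp lay near the threshold of 0.05. That of Aats-trp was lost whichever of the 9 libraries was left out, heterozygotes included (limma adjusted p 0.0541 to 0.132). That of Aats-val was lost in 8 of 9 cases (0.0489 to 0.109). The other 8 calls held in all 9 cases. With quantile normalization Aats-gln, Aats-his, Aats-ile, Aats-lys and Aats-tyr were still called and the other 5 were not.

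The 5 cytosolic synthetases that were not called were Aats-ala, Aats-arg, Aats-cys, Aats-glupro and Aats-gly, with log2 fold changes of 0.26, 0.12, 0.18, 0.32 and 0.09. Aats-gly, for glycine, had a mean of 31.0 ± 1.03 and 33.1 ± 0.626 FPKM (SD, n = 3) in wild type and homozygote. The smallest adjusted p among the 5 was 0.0527, that of Aats-ala. Grouped by catalytic fold, a grouping made after the values had been seen, 5 of 7 class I and 5 of 7 class II enzymes rose, with medians of 0.46 and 0.54. The bifunctional Aats-glupro, which joins an enzyme of each class, was left out of both. Members of the multi-synthetase complex known from mammals rose in 4 of 6 cases and the other cytosolic enzymes in 6 of 9.

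**Figure D2:**
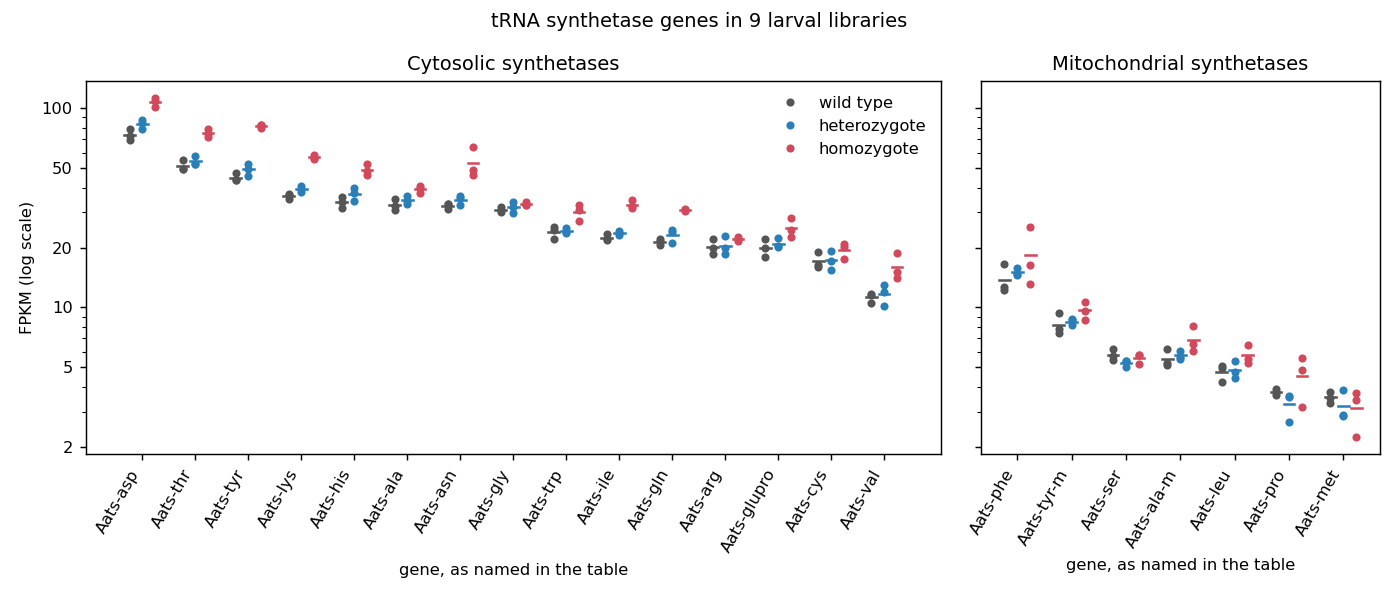
FPKM on a log axis of the 15 cytosolic and 7 mitochondrial synthetase genes, with a point per library and a bar at the mean of each genotype. In Aats-tyr the homozygotes sit between 80.0 and 83.0 FPKM, above the wild types, and among the mitochondrial genes the homozygote points spread over the wild types in all but Aats-leu.

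None of the 7 mitochondrial synthetases was called in the homozygote, by limma, in either direction. Over all tested loci 12.3% were called higher and 9.67% lower, and over those from 5 to 20 FPKM 11.5% and 9.45%. With 7 genes, a count of 0 does not set the mitochondrial synthetases apart from those shares. At an unadjusted p under 0.05, 1 of 7 was higher, Aats-ala-m, and none was lower. Their median log2 fold change was 0.21. The homozygotes lay clear above the wild types in 1 of 7 genes, Aats-leu, where 19.5% of all tested loci were so separated. The mitochondrial genes were expressed at a lower level, with means over the 9 libraries of 3.28 to 15.7 FPKM against 13.0 to 88.2 for the cytosolic ones. In all 7, homozygote 1 was the highest and homozygote 2 the lowest of the 3 homozygotes. The most abundant was Aats-phe, for phenylalanine, at 12.7, 16.5 and 12.2 FPKM in wild type libraries, 15.7, 14.6 and 14.8 FPKM in heterozygous and 25.3, 13.2 and 16.4 FPKM in homozygous ones. Its homozygote 1 stood apart from homozygotes 2 and 3, which lay within the range of the wild types.

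The median log2 fold change of the cytosolic genes exceeded that of the mitochondrial genes by 0.30. With quantile normalization the medians were 0.33 and 0.31, and the difference was 0.02, with 5 cytosolic and 0 mitochondrial genes called. Leaving out 1 library gave differences of 0.21 to 0.40, with 8 or 9 cytosolic and 0 mitochondrial calls.

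A member in each compartment was present for 3 amino acids. For tyrosine, Aats-tyr-m stood at 7.41, 9.38 and 7.83 FPKM in wild type libraries, 8.12, 8.65 and 8.73 FPKM in heterozygous and 10.7, 8.69 and 9.63 FPKM in homozygous ones. The log2 ratio of Aats-tyr to Aats-tyr-m came to 2.41, 2.21 and 2.34 for wild type, 2.56, 2.28 and 2.38 for heterozygous and 2.84, 3.12 and 2.93 for homozygous libraries. The homozygote ratios lay above all others, by 0.64 against the wild type (exact two-sided permutation test p = 0.1, the smallest that 3 against 3 libraries allow, and 0.3 after adjustment over the 3 pairs).

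For alanine, Aats-ala stood at 35.2, 32.4 and 30.8 FPKM in wild type libraries, 36.4, 33.2 and 34.2 FPKM in heterozygous and 40.8, 39.9 and 37.6 FPKM in homozygous ones. Aats-ala-m stood at 5.26, 6.16 and 5.13 FPKM in wild type libraries, 5.63, 5.54 and 6.05 FPKM in heterozygous and 8.04, 6.03 and 6.53 FPKM in homozygous ones. Their log2 ratio averaged 2.37 ± 0.17 (SD, n = 3) in the homozygote and 2.38 ± 0.15 in the wild type (exact permutation test p = 0.8). For proline the cytosolic enzyme is Aats-glupro, which also charges glutamate tRNA, at 19.9, 22.0 and 17.9 FPKM in wild type libraries, 22.3, 20.2 and 20.3 FPKM in heterozygous and 28.2, 22.5 and 24.5 FPKM in homozygous ones. Aats-pro stood at 3.90, 3.64 and 3.76 FPKM in wild type libraries, 2.67, 3.55 and 3.58 FPKM in heterozygous and 5.60, 3.17 and 4.86 FPKM in homozygous ones. The ratio of this pair differed by 0.12 between homozygote and wild type (exact permutation test p = 0.5, adjusted 0.75), with overlapping libraries.

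Synthetase genes filed under other names extended both groups. Those counted have current symbols of the form LeuRS or LeuRS-m, which leaves out alpha-PheRS and beta-PheRS. Of the 18 cytosolic synthetase genes so counted 12 rose, the added 2 being CG33123 (LeuRS, log2 fold change 0.47, limma adjusted p = 0.00839) and CG17259 (SerRS, 0.33, limma adjusted p = 0.0449). Of 15 mitochondrial synthetase genes 1 rose and 1 fell, where 12.3% and 9.67% of all tested loci did. CG10092 (ArgRS-m) went from a mean of 3.92 to 5.04 FPKM (limma adjusted p = 0.0476) and CG5660 (ValRS-m) from 5.75 to 2.65 FPKM (limma adjusted p = 0.0327). Wild type 1 had the highest value of CG5660, 8.0 FPKM, against 4.51 and 4.73 in the other wild types.

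Among the initiation factors without the extra copies, 12 of 23 rose, none fell, and the median log2 fold change was 0.35. Over all tested loci 12.3% were called higher and 9.67% lower. Of the 23, 9 averaged from 100 to 1000 FPKM, where 17.8% of tested loci were called higher, and 2 above 1000, where 48.6% were. With quantile normalization eIF-3p66 alone rose, eIF-4E and eIF4AIII fell, and the median was 0.14. Without wild type 1, wild type 3 or homozygote 3, 7 rose in each case and none fell.

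Of the 3 subunits of eIF2, the GTPase that delivers the initiator tRNA, 2 rose. eIF-2alpha, the subunit phosphorylated by stress kinases, stood at 88.4, 82.6 and 82.4 FPKM in wild type libraries, 92.8, 87.1 and 100.4 FPKM in heterozygous and 119.6, 120.2 and 119.6 FPKM in homozygous ones. eIF-2gamma, the GTP-binding subunit, stood at 83.5, 85.5 and 87.4 FPKM in wild type libraries, 95.7, 88.1 and 90.3 FPKM in heterozygous and 116, 117 and 115 FPKM in homozygous ones. Homozygotes exceeded all other libraries in both, with log2 fold changes of 0.50 (SE 0.08, limma adjusted p = 0.00694) and 0.44 (SE 0.07, limma adjusted p = 0.00719). The value of eIF-2gamma covers Su(var)3-9 as well, which shares its locus. eIF-2beta had a log2 fold change of 0.22 (limma adjusted p = 0.0862), which turned to −0.04 with quantile normalization. Of 5 subunits of eIF2B, the exchange factor that recharges eIF2 with GTP, eIF2B-alpha rose by 0.35 (limma adjusted p = 0.0173) and eIF2B-gamma by 0.42 (limma adjusted p = 0.0458) on the log2 scale. Over the 9 cases with a library left out their adjusted p ran from 0.0152 to 0.0632 and from 0.0303 to 0.109, losing the call in 3 and in 7 of them. The beta, delta and epsilon subunits had log2 fold changes of 0.22, 0.01 and 0.14 and were not called.

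The eIF3 subunits rose together. All 5 members of this scaffold on the small ribosomal subunit were called higher, where 12.3% of all tested loci were. Their median log2 fold change was 0.73. The largest rise of any initiation factor was that of eIF-3p66 (eIF3d1, a subunit that can contact the mRNA cap), on chromosome 3R from 23680039 to 23682317 (dm6). eIF-3p66 stood at 100.0, 104 and 109 FPKM in wild type libraries, 136, 120.4 and 132 FPKM in heterozygous and 215, 240.2 and 213 FPKM in homozygous ones. The genotypes followed each other without overlap, and the homozygote mean was 2.14 times the wild type mean (log2 fold change 1.09, SE 0.09, limma adjusted p = 0.000401).

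eIF3-S8 (eIF3c) stood at 144, 156 and 165 FPKM in wild type libraries, 171, 162 and 175 FPKM in heterozygous and 242, 289 and 269.9 FPKM in homozygous ones. eIF3-S9 (eIF3b) stood at 209, 228 and 234 FPKM in wild type libraries, 251, 240.3 and 261 FPKM in heterozygous and 338, 401 and 377 FPKM in homozygous ones. eIF-3p40 (eIF3h) stood at 185, 180.3 and 182 FPKM in wild type libraries, 209, 189 and 214 FPKM in heterozygous and 274, 322 and 276 FPKM in homozygous ones. Homozygote 2 was the highest library in each of these subunits, and no homozygote overlapped another genotype. Log2 fold changes were 0.78 for eIF3-S8 (SE 0.10, limma adjusted p = 0.00259), 0.73 for eIF3-S9 (SE 0.10, limma adjusted p = 0.0036) and 0.67 for eIF-3p40 (SE 0.10, limma adjusted p = 0.00508). eIF3-S10 (eIF3a) rose by 0.45 (limma adjusted p = 0.0197), a call that was lost without wild type 1, wild type 3 or homozygote 3, the adjusted p running from 0.0187 to 0.0733 over the libraries left out. With quantile normalization eIF-3p66 kept its call and the other 4 did not, their log2 fold changes staying above 0.

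The 8 other eIF3 subunits are listed under other names, and 7 of them rose. With these, 12 of 13 eIF3 subunits were called higher, where 12.3% of all tested loci were. In all 13 the homozygotes lay above the wild types, where 19.5% of all tested loci were so separated. All 13 averaged from 100 to 1000 FPKM, a range with 17.8% called higher and a median log2 fold change of 0.27. Values with quantile normalization are not given for the 8 added subunits. Log2 fold changes ran from 0.31 for Adam (eIF3j, limma adjusted p = 0.0528) to 1.09 for eIF-3p66, with a median of 0.66. Int6 (eIF3e) and CG8636 (eIF3g1) had the smallest adjusted p of the added subunits, with log2 fold changes of 0.66 (limma adjusted p = 0.00275) and 0.71 (limma adjusted p = 0.00303).

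In the cap-binding group 1 of 4 members was called. The helicase eIF-4a stood at 828, 902 and 874 FPKM in wild type libraries, 969, 921 and 962 FPKM in heterozygous and 1299, 1414 and 1273 FPKM in homozygous ones. All homozygotes were above all other libraries (log2 fold change 0.61, SE 0.11, limma adjusted p = 0.00841), a call lost with quantile normalization (0.19, limma adjusted p = 0.513, over 18 settings 0.00572 to 0.513). The cap-binding protein eIF-4E stood at 193, 223 and 199 FPKM in wild type libraries, 207, 197 and 201 FPKM in heterozygous and 207, 175 and 192 FPKM in homozygous ones. Its libraries overlapped across genotypes, with a log2 fold change of −0.10 (limma adjusted p = 0.48). With quantile normalization it was −0.45 and called (limma adjusted p = 0.0311, over 18 settings 0.0311 to 0.804). The scaffold eIF4G stood at 91.0, 110.1 and 101 FPKM in wild type libraries, 123, 110.3 and 105 FPKM in heterozygous and 128, 104 and 121 FPKM in homozygous ones. Its log2 fold change was 0.22 (limma adjusted p = 0.194) and −0.01 with quantile normalization. eIF-4B, which assists the helicase, had means of 10.1 ± 1.06 and 11.4 ± 0.370 FPKM (SD, n = 3) in wild type and homozygote. eIF4AIII, a relative of the helicase in the exon junction complex, had means of 39.6 ± 2.05 and 36.0 ± 1.54 FPKM (SD, n = 3) and a log2 fold change of −0.13 (limma adjusted p = 0.2).

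Of the factors for start site choice and subunit joining, 1 of 4 rose. eIF-1A, which keeps the scanning complex open, stood at 264, 284 and 280.3 FPKM in wild type libraries, 304, 292 and 285 FPKM in heterozygous and 358, 376 and 369 FPKM in homozygous ones. Its homozygotes were above the other libraries, with a log2 fold change of 0.41 (SE 0.08, limma adjusted p = 0.0162). Without wild type 1, wild type 3 or homozygote 3 the call was lost (adjusted p 0.0222 to 0.0617 over the libraries left out). eIF5, eIF5B and eIF6 had log2 fold changes of 0.13, 0.23 and 0.19, the adjusted p of eIF5B being 0.0508. The most abundant member was eIF-5A, renamed eEF5 because it acts on stalled elongating ribosomes, at 1419, 1757 and 1551 FPKM in wild type libraries, 1915, 1859 and 1827 FPKM in heterozygous and 2249, 2442 and 2195 FPKM in homozygous ones. The genotypes were ordered without overlap, with a log2 fold change of 0.55 (SE 0.13, limma adjusted p = 0.0272), which was 0.04 with quantile normalization. That call was lost in 5 of the 9 cases with a library left out (adjusted p 0.0216 to 0.0887).

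**Figure D3:**
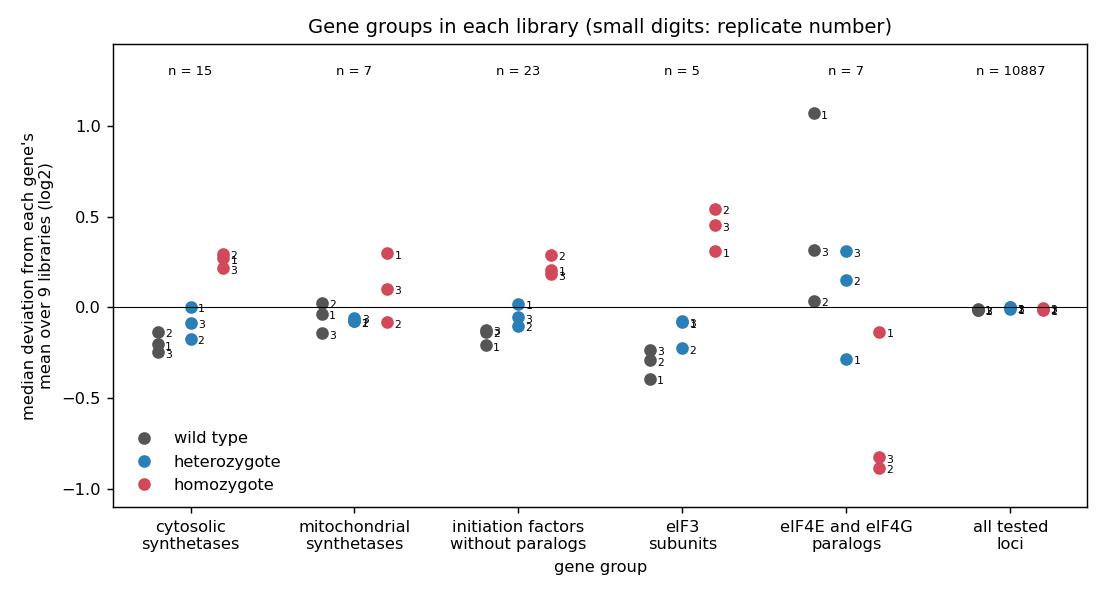
Median, over the genes of each group, of the log2 deviation from the gene's mean over the 9 libraries, with a point per library and its replicate number beside it. Cytosolic synthetases, initiation factors and eIF3 subunits are above 0 in all homozygotes, the mitochondrial group spreads from −0.08 in homozygote 2 to 0.30 in homozygote 1, and the paralogs are highest in wild type 1.

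The extra copies of eIF4E went the other way. Of eIF4E-3 to eIF4E-7, 4 of 5 fell in the homozygote, where 9.67% of all tested loci were called lower. In all 5 the homozygotes lay below the wild types, where 20.5% of all tested loci were separated in that direction. eIF4E-3, which is needed for normal male meiosis, stood at 27.7, 15.9 and 19.2 FPKM in wild type libraries, 10.3, 14.2 and 20.7 FPKM in heterozygous and 10.1, 5.90 and 5.04 FPKM in homozygous ones. The homozygote mean was 0.335 times the wild type mean, with a log2 fold change of −1.47 (SE 0.32, limma adjusted p = 0.021). eIF4E-4 stood at 25.7, 5.71 and 9.59 FPKM in wild type libraries, 4.72, 9.70 and 10.5 FPKM in heterozygous and 4.67, 1.34 and 1.75 FPKM in homozygous ones. eIF4E-5 stood at 24.8, 7.22 and 11.9 FPKM in wild type libraries, 6.01, 12.8 and 11.8 FPKM in heterozygous and 6.81, 2.80 and 2.80 FPKM in homozygous ones. Both were far higher in wild type 1 than in the other wild types. eIF4E-4 fell by 1.90 on the log2 scale (SE 0.56, limma adjusted p = 0.0466), and eIF4E-5 had a log2 fold change of −1.53 (SE 0.48, limma adjusted p = 0.0549).

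eIF4E-6 stood at 2.31, 2.29 and 1.83 FPKM in wild type libraries, 1.12, 1.57 and 1.64 FPKM in heterozygous and 1.48, 0.789 and 0.727 FPKM in homozygous ones. eIF4E-7 stood at 8.41, 3.03 and 3.88 FPKM in wild type libraries, 2.31, 3.43 and 3.87 FPKM in heterozygous and 2.58, 1.13 and 1.22 FPKM in homozygous ones. These were the weakest copies, and they fell by 0.67 (SE 0.18, limma adjusted p = 0.04) and 1.15 (SE 0.35, limma adjusted p = 0.0498) on the log2 scale of FPKM + 1, which understates changes near 1 FPKM. All 5 copies were highest in wild type 1, and homozygote 1 was above homozygotes 2 and 3 in all 5. Together the 5 copies made up 31.6, 13.3 and 18.9% of the FPKM of all eIF4E genes in wild type libraries, 10.6, 17.5 and 19.4% in heterozygous and 11.0, 6.40 and 5.66% in homozygous ones. Without wild type 1, wild type 3 or homozygote 3 none of the 4 falls was called. Leaving out each library in turn lost the calls of eIF4E-4, eIF4E-6 and eIF4E-7 in 7 cases each. Their limma adjusted p then reached 0.134, 0.124 and 0.142. The call of eIF4E-3 was lost in only the 3 cases named. With quantile normalization the fall of eIF4E-3 was still called and those of the other copies were not.

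The summed FPKM of spermatocyte and spermatid markers moved with these genes from library to library. The 18 markers, which include the meiotic regulator twe and the germline tubulin betaTub85D, summed to 536, 188 and 262 FPKM in wild type libraries, 139, 245 and 272 FPKM in heterozygous and 149, 76.9 and 77.6 FPKM in homozygous ones. Of 17 tested, 9 fell in the homozygote, where 9.67% of all tested loci were called lower. None rose, and none stood at 0 in any library. The largest in wild type 1 were ocn, Mst87F and betaTub85D, at 111, 85.9 and 81.1 FPKM. Not all markers changed as much: mia had a log2 fold change of −0.13 (limma adjusted p = 0.294). The summed FPKM of the 5 eIF4E copies was 16.6, 18.2 and 17.7% of the marker sum for wild type, 17.6, 17.0 and 17.8% for heterozygous and 17.2, 15.6 and 14.9% for homozygous libraries. Across the 9 libraries that share differed by 1.22 times between the highest and the lowest, while the copies' summed FPKM differed by 7.71 times. The shares of single copies varied by 1.23 times for eIF4E-7 and more for the others, among them 1.64 times for eIF4E-3, 2.76 for eIF4E-4 and 2.82 for eIF4E-6. That of eIF4E-4 averaged 3.84 ± 0.894% over the wild types and 2.37 ± 0.698% over the homozygotes (SD, n = 3). Of 7 early germ cell markers 4 were tested and none of those was called. The sums of the 7 ran from 22.9 to 28.4 FPKM over all libraries, most of it from bgcn at 15.8 to 18.9 FPKM. Among the weaker ones, the homozygotes lay above the wild types without overlap for vas, nos and zpg. Their means in wild type and homozygote were 1.62 and 2.44 FPKM for vas, 0.261 and 0.951 for nos and 0.214 and 0.643 for zpg. Both nos and zpg were too low to be tested, and their heterozygotes also lay clear above the wild types. The marker bam, too low to be tested as well, went the other way. Its means were 0.520 and 0.329 FPKM in wild type and homozygote, with overlapping libraries. What part the amount of testis tissue had in the fall of the eIF4E copies was not tested.

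**Figure D4:**
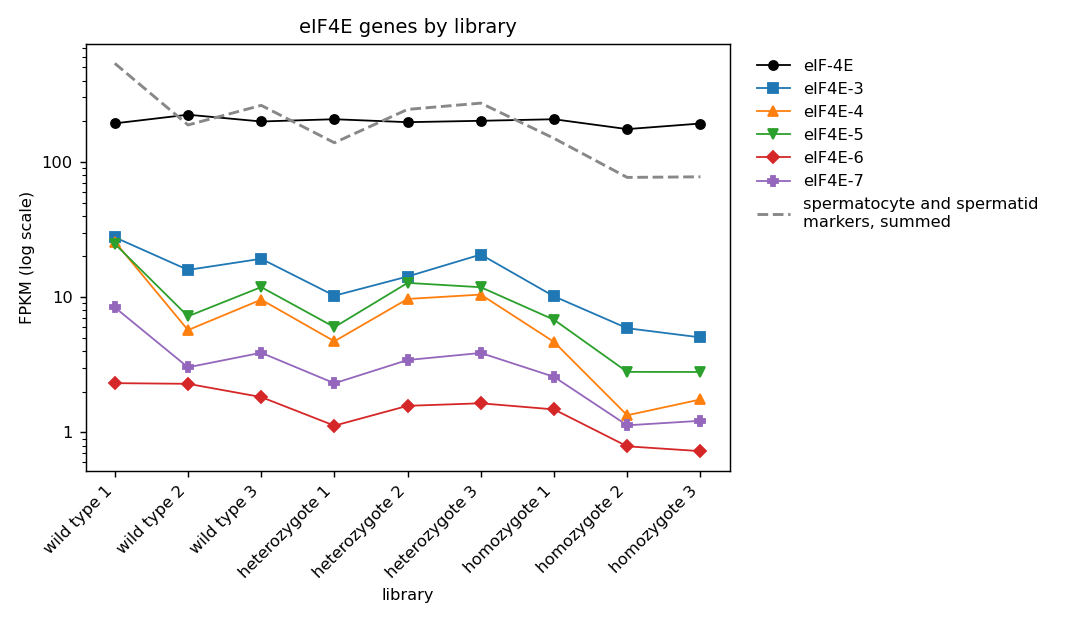
FPKM on a log axis of the general cap-binding gene eIF-4E and its 5 extra copies in the 9 libraries, with the summed FPKM of 18 spermatocyte and spermatid markers (dashed). The copies and the marker sum have their highest values in wild type 1 and dip together in heterozygote 1, while eIF-4E stays between 175 and 223 FPKM.

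eIF4G2, another eIF4G that is required for male meiosis and spermatid formation, appeared on 2 loci with the same deposited span, chromosome 3R from 23801714 to 23851105 (dm6). The table lists that name alone on 1 locus and together with CG33111 on the other. RefSeq places eIF4G2 on the minus strand within this span, and the table gives no strand, so which of the loci holds its transcripts could not be settled. The locus with the single name stood at 2.44, 2.80 and 1.54 FPKM in wild type libraries, 1.74, 1.48 and 2.92 FPKM in heterozygous and 4.38, 5.50 and 6.30 FPKM in homozygous ones. It was higher in every homozygote than in any other library (log2 fold change 0.98, SE 0.23, limma adjusted p = 0.0246), and without wild type 1, wild type 3 or homozygote 3 this call was lost (adjusted p 0.0237 to 0.0882 over the libraries left out). The shared locus stood at 54.9, 50.3 and 52.8 FPKM in wild type libraries, 45.1, 48.6 and 49.9 FPKM in heterozygous and 45.9, 47.7 and 45.5 FPKM in homozygous ones. Its homozygotes lay below the wild types but were not called lower (log2 fold change −0.18, limma adjusted p = 0.111).

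Of 4 paralogs of other initiation factors under other names 2 fell, where 9.67% of all tested loci were called lower. Under 5 FPKM, where CG10881, CG4810 and CG8335 lie on average, 16.4% were, with a median log2 fold change of −0.36. CG10881 (eIF3g2) stood at 6.11, 3.67 and 4.82 FPKM in wild type libraries, 3.07, 3.74 and 4.10 FPKM in heterozygous and 2.21, 0.699 and 1.01 FPKM in homozygous ones. CG1340 (eIF4H2) stood at 17.7, 5.47 and 6.54 FPKM in wild type libraries, 3.49, 7.80 and 8.0 FPKM in heterozygous and 3.57, 1.25 and 1.62 FPKM in homozygous ones. Both fell, by 1.38 (limma adjusted p = 0.0112) and 1.69 (limma adjusted p = 0.0424) on the log2 scale, and both were highest in wild type 1. CG4810 (eIF3d2) and CG8335 (eIF3f2) had log2 fold changes of −1.42 (limma adjusted p = 0.0507) and −0.80 (limma adjusted p = 0.0855). The general copies of the same subunits, CG8636 (eIF3g1), eIF-3p66 (eIF3d1) and CG9769 (eIF3f1), rose by 0.71, 1.09 and 0.51 (limma adjusted p = 0.00303, 0.000401 and 0.0142), and Rbp2 (eIF4H1) had a log2 fold change of 0.10 and was not called. The median log2 fold change of the 23 initiation factors exceeded that of the 7 eIF4E and eIF4G paralog loci by 1.50, by 0.88 with a pseudocount of 5 and by 0.91 with quantile normalization.

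Between heterozygote and wild type, limma called 0 of 52 members, where 0.147% of all tested loci were called higher and 0.0643% lower, 0.211% in all. At an unadjusted p under 0.05, 1 member was higher and none lower. That member was eIF-3p66, with a log2 fold change of 0.31 (SE 0.09, limma adjusted p = 0.54) and no overlap between the genotypes. Of the 52 log2 fold changes 40 were above 0, and their median was 0.07. Heterozygotes lay clear above the wild types for 10 members and clear below for 5, where 8.25% and 6.18% of all tested loci were so separated. The eIF4E copies had log2 fold changes between −0.48 and −0.36, and none was called.

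Between homozygote and heterozygote 16 members rose and none fell, where 6.27% of all tested loci were called higher and 1.42% lower, 7.7% in all. This comparison and that of homozygote with wild type share the homozygote libraries. The 16 were 8 cytosolic synthetases, 4 of 5 eIF3 subunits, eIF-2alpha, eIF-2gamma, eIF-4a and the eIF4G2 locus with the single name. Aats-tyr (log2 fold change 0.72, limma adjusted p = 0.00182), eIF-3p66 (0.78, limma adjusted p = 0.00244) and Aats-lys (0.52, limma adjusted p = 0.00386) had the smallest adjusted p, and these 3 calls held whichever library was left out. With quantile normalization that of Aats-tyr held and those of eIF-3p66 and Aats-lys were lost (limma adjusted p = 0.0678 and 0.0618). The count of 16 fell to 2 with quantile normalization and to 7 with only the 2 genotypes fitted, and over all tested loci the higher calls fell from 683 to 449 and 440. It fell to 9 without wild type 3, 7 without heterozygote 1, 3 without heterozygote 2, 6 without heterozygote 3 and 5 without homozygote 3. The eIF4E copies had log2 fold changes between −1.42 and −0.30 and were not called.

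For 38 members the genotype means rose from wild type through heterozygote to homozygote, as they did for 3382 of 10887 tested loci, and for 8 they fell in that order. All 15 cytosolic and 4 of 7 mitochondrial synthetases had rising means. Of the 8 with falling means 5 were the extra eIF4E genes.

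Changes in the homozygote differed with expression level over all genes. Over tested loci with a mean under 5 FPKM the median log2 fold change was −0.36 with 4.15% called higher. It was 0.01 with 11.5% from 5 to 20 FPKM, 0.12 with 17.5% from 20 to 100, 0.27 with 17.8% from 100 to 1000 and 0.61 with 48.6% from 1000 FPKM. Of the cytosolic synthetases 13 lie in the range from 20 to 100 FPKM, and 9 of the initiation factors in that from 100 to 1000. eIF-4a and eIF-5A, above 1000 FPKM, had log2 fold changes of 0.61 and 0.55, near the median of their range. Of the mitochondrial genes 5 lie from 5 to 20 FPKM and 2 below. Quantile normalization brought the 5 medians to between −0.03 and 0.18. As a share of the FPKM left after taking out the 22 loci that are among the 10 highest of any library, the 15 cytosolic synthetases made up 0.0839, 0.0697 and 0.0769% for wild type and 0.0781, 0.104 and 0.0847% for homozygous libraries. The 23 initiation factors made up 0.731, 0.656 and 0.754% and 0.712, 0.997 and 0.802% on the same scale, so that in both groups homozygote 1 lay among the wild types there and the other homozygotes above them.

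**Figure D5:**
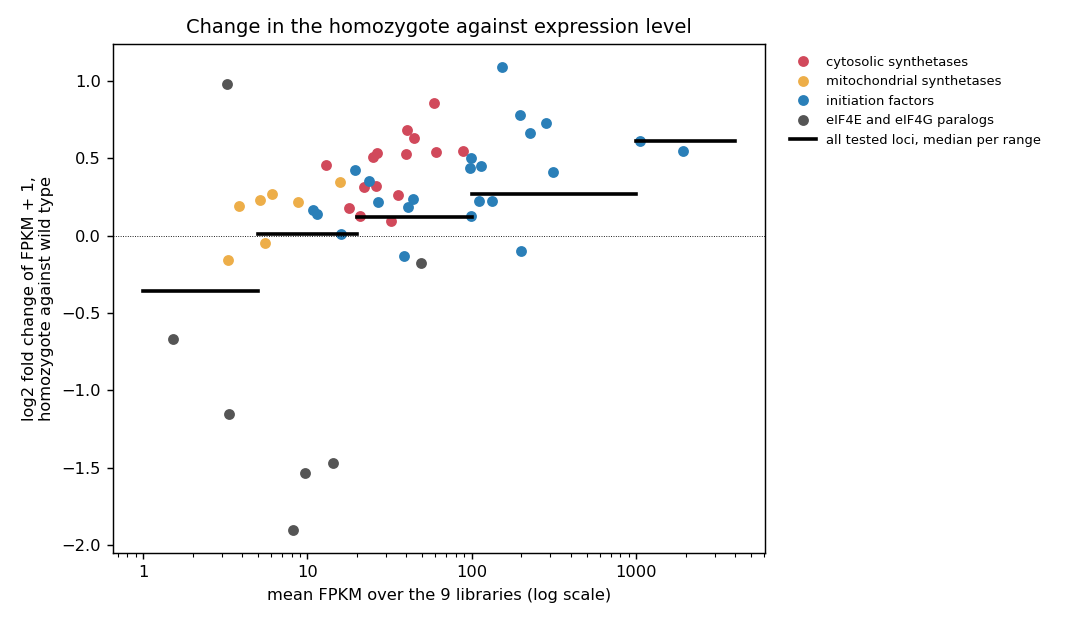
Log2 fold change of the homozygote against the wild type, on FPKM + 1, plotted against mean FPKM over the 9 libraries on a log axis for the 52 members, with the median of all tested loci in 5 ranges of level as horizontal lines, the highest range being open to the right. Most cytosolic synthetases lie above the line of their range, while eIF-4a and eIF-5A lie close to theirs.

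Of the 14 members on chromosome 3R, the arm of Atg6, 4 lie within 1 Mb of that gene, Aats-glupro at 0.0908 Mb, both eIF4G2 loci at 0.198 Mb and eIF-3p66 at 0.367 Mb. Of these, eIF-3p66 and the eIF4G2 locus with the single name are among the calls above, and there the effects of linked variants and of Atg6 loss cannot be told apart.

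Other parts of the translation machinery were read from lists by function. Of 9 elongation and termination factors 4 rose and none fell, where 12.3% of all tested loci were called higher. The 4, EF2, Ef1alpha48D, Ef1beta and Ef1gamma, all averaged over 1000 FPKM, a range in which 48.6% of tested loci were called higher, and 1.14% with quantile normalization. EF2, which moves the ribosome along the mRNA, stood at 1232, 1396 and 1285 FPKM in wild type libraries, 1676, 1468 and 1641 FPKM in heterozygous and 2250.4, 2243 and 2245 FPKM in homozygous ones. Ef1beta, an exchange factor for the tRNA carrier, went from a mean of 852 ± 50.6 to 1409 ± 79.1 FPKM. Their log2 fold changes were 0.79 and 0.72 (limma adjusted p = 0.00527 and 0.00573), and the homozygotes of EF2 were above all other libraries. Of 20 initiation factors under other names, the eIF3 subunits and paralogs above included, 9 rose and 2 fell, against 12.3% and 9.67% of all tested loci. pix, the fly ABCE1 that splits ribosomes, had the smallest adjusted p (log2 fold change 0.76, limma adjusted p = 0.00203). Of 11 regulators of initiation 3 rose, where 12.3% of all tested loci were called higher, and none was called between homozygote and heterozygote. The 3 were S6k, the ribosomal protein S6 kinase under TOR, by 0.66 (limma adjusted p = 0.0133), crc, the fly ATF4, by 0.38 (limma adjusted p = 0.0433), and mxt, an eIF4E-binding protein, by 0.53 (limma adjusted p = 0.0471). Thor, the fly 4E-BP, stood at 1128, 833 and 1101 FPKM in wild type libraries, 1040.5, 1142 and 1161 FPKM in heterozygous and 1148, 2502 and 2199 FPKM in homozygous ones, with homozygote 1 near the wild types and homozygotes 2 and 3 above (log2 fold change 0.87, limma adjusted p = 0.0628). None of 3 mitochondrial translation factors was called, by limma, and none had an unadjusted p under 0.05.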

How the data were processed

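RNA from 9 whole-larva libraries was measured, 3 per genotype, with paired reads of 75 bases from strand-specific libraries, per the labels. The authors deposited FPKM per locus; the genome build dm6 and the tools Cufflinks 2.2.1, HISAT2 2.1.0 and limma come from the submitters' processing notes, with annotation and strand setting not given in the sources used here. The depth behind FPKM is unknown, so no counting intervals are given. The table held 50244 lines for 15809 loci, each line repeated 3 times, and 1 line per locus was kept. Of the members, 4 were merged with another gene and 24 had another locus in their span, whose reads cannot be told apart if counting ignored strand. Current symbols come from the RefSeq table, which matched all 52 members.

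A locus was tested where 3 or more libraries reached 1 FPKM, which kept 10887. The test was limma 3.58.1 in R 4.3.3 (lmFit, contrasts.fit, trended eBayes) on log2(FPKM + 1), with the 3 genotypes fitted together and Benjamini-Hochberg adjustment over all tested loci at 0.05. The pseudocount of 1 understates changes of weak genes. Steps were tested on simulated data. Paired compartments were compared by an exact permutation test of log2 ratios. Adjusted p-values throughout are limma's and measure only the spread between these libraries, which the labels do not tie to separate cultures. Library correlations of log2 values ran from 0.849 to 0.99. Figures used matplotlib 3.10.9.

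The members, gene lists and tests were chosen with earlier results of these data known. Values in each library were given for the 12 members with the smallest adjusted p per direction, compartment pairs, families with paralogs and the 3 most abundant of each kind, and of the pathway lists up to 2 genes per direction with the smallest adjusted p. LeuRS, SerRS, mxt, Thor and others outside that rule were named after their values had been seen. Of the listed names 11 matched no locus. Alternatives were quantile normalization, median-of-ratios scaling, pseudocounts of 0.1 and 5, filters at 0 and 5 FPKM, a fit of 2 genotypes, a replicate block, lines as deposited and leaving out each library.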

Additional observations from a re-analysis of the deposited data

How the results depend on the processing

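Members called between homozygote and wild type numbered 27, against 10 with quantile normalization, 14 with only the 2 genotypes fitted, 15 with the replicate block and 15 to 26 with 1 library left out. Between homozygote and heterozygote they numbered 16, against 2, 7, 5 and 3 to 13. None was called between heterozygote and wild type in any setting. Deviations of same-numbered libraries from their genotype means had correlations of −0.65 to 0.33, and those of other pairs −0.475 to 0.668. With 3 libraries per genotype this cannot exclude a batch shared by replicate number. The block result is given here only, with 15 members called higher and 0 lower between homozygote and wild type. The cytosolic minus mitochondrial median of 0.30 was 0.023 with quantile normalization and 0.21 to 0.40 with 1 library left out. The difference of 1.50 between initiation factors and paralogs was 0.88 with a pseudocount of 5, 0.91 with quantile normalization and 1.12 to 1.79 with 1 library left out. Of the 27 calls 6, those of eIF-3p66, Aats-gln, Aats-his, Aats-ile, Aats-lys and Aats-tyr, held in all 18 settings, and 15 held with any library left out. No called member changed direction. Quantile normalization turned the uncalled log2 fold changes of eIF4G to −0.0096, eIF-2beta to −0.042, eIF2B-delta to −0.045, eIF5 to −0.113, Aats-gly to −0.033, Aats-met to 0.24 and Aats-ser to 0.14. Leaving out single libraries gave eIF2B-delta −0.038 (without homozygote 1, and below 0 also without wild type 2 or homozygote 2) to 0.091 and Aats-met −0.264 to 0.010 (without homozygote 2). The cause was not tested. Depth is unknown, and 3 libraries per genotype limit every comparison.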
